A study of Mus musculus with 6 samples.

Results

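The genes described here are the members of the mouse Hox clusters, taken as every row of the count table whose symbol is Hoxa, Hoxb, Hoxc or Hoxd followed by a number. These were 39 of the 55414 genes in the table, 11 on chromosome 6 (Hoxa), 10 on chromosome 11 (Hoxb), 9 on chromosome 15 (Hoxc) and 9 on chromosome 2 (Hoxd). They were followed in 6 mRNA libraries of sorted embryonic cells, 3 labelled miR-302 WT and 3 labelled miR-302 KO. All embryos carried Pdx1-Cre, a Cre transgene under the promoter of the pancreatic progenitor gene Pdx1, and a tdTomato reporter at Rosa26 that Cre switches on, so the sort kept tdTomato+ cells of the trunk region at E10.5. The KO allele of mir-302 was inherited from heterozygous parents rather than made by Cre, so it was not limited to the labelled cells. The labels name the tissue as pancreas and the cells as pancreatic progenitors, and they do not say whether a library came from 1 embryo or from pooled embryos, so the spread between libraries may be partly technical.

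Hox genes encode homeodomain transcription factors that give cells their position along the head-to-tail axis. Within each of the 4 clusters the genes lie in the order of their expression domains, with low paralog numbers expressed up to the hindbrain and pharynx and high paralog numbers only in posterior trunk, limb, genital and tail tissue. HOX proteins bind DNA with TALE cofactors of the PBX, MEIS and PKNOX families, Polycomb complexes keep unused clusters silent, and trithorax complexes keep used ones active. In the embryonic gut, Hox genes are best known from the mesenchyme and the posterior gut, and Pdx1, which marks the pancreatic bud, belongs to the related ParaHox group.

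The mir-302 locus makes miRNAs that pair with mRNA 3′UTRs through their seed, and the Hox 3′UTRs were searched for it because this locus is what separates the genotypes. The mature 3p strands in RefSeq (GRCm38.p6, chromosome 3) are given with the shared seed letters in capitals, which are bases 2 to 8 of the b and d strands and bases 1 to 7 of the c strand as that table starts it.
miR-302b-3p: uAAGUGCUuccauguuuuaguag
miR-302c-3p: AAGUGCUuccauguuucagugg
miR-302d-3p: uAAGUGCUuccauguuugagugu
A match was AGCACTT, or GCACTT followed by A, in the 3′UTR of the transcript with the longest coding sequence (GENCODE M21, GRCm38). In all, 3 of 39 Hox genes held a match (7.69%), beside 3385 of 21085 protein-coding genes with a 3′UTR (16.1%). Some annotated Hox 3′UTRs are short, such as 30 bases for Hoxd11 and 51 for Hoxa13. The difference between the shares was not tested. Of the sites, 2 are shown, with the matching letters in capitals and read on the strand of the gene.
Hoxb13: gagctctgttgAGCACTTAgaaatcg
Hoxd12: gacagaaaaccAGCACTTcttcccca
The Hoxb13 window is chr11:96196520-96196545 and the Hoxd12 window chr2:74677162-74677187, both on the plus strand. Hoxb13 had no count in any library and Hoxd12 had 3 counts, all in KO replicate 3. A match is a description of letters and was not tested as a binding site.

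Libraries held 17352498 to 26634523 counts, of which 164 to 1639 were from Hox genes. The mir-302 genes gave 2 counts in all 6 libraries together, both from Mir302d in KO replicate 3, so mRNA counts of the deleted locus did not check the genotype labels. Markers of pancreatic progenitors were detected in every library, all 15 of them, with a summed level of 1176 to 1485 CPM (counts divided by library size after TMM scaling), and Pdx1 itself ranged from 73.1 to 108 CPM. Hemoglobin and other red cell genes stood apart in WT replicate 3 (summed 16110 CPM), KO replicate 1 (6463 CPM) and KO replicate 3 (339 CPM), against 0.798 to 2.46 CPM in the other 3 libraries.

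Hox genes were expressed at low levels throughout, and few members were present in all libraries. Counts were found in at least 1 library for 35 of 39 members, but only 5 had counts in all 6, among them Hoxa2 and Hoxa3 of the anterior groups and Hoxc4 and Hoxc5 of the central ones. Hoxb8, Hoxb13, Hoxc11 and Hoxc12 had none, although the neighbours Hoxb7 and Hoxb9 did. The counting annotation and the handling of reads shared by overlapping genes are not given in the sources used here, and 16 members share exon sequence with another gene in GENCODE M21, among them Hoxa3 with 5 other annotated genes and Hoxc5 with Hoxc10. Values of such members are uncertain to that extent. A count of 0 allows up to 3 counts, or 0.112 to 0.171 CPM at these depths, and these limits cover counting error only.

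**Figure D1:**
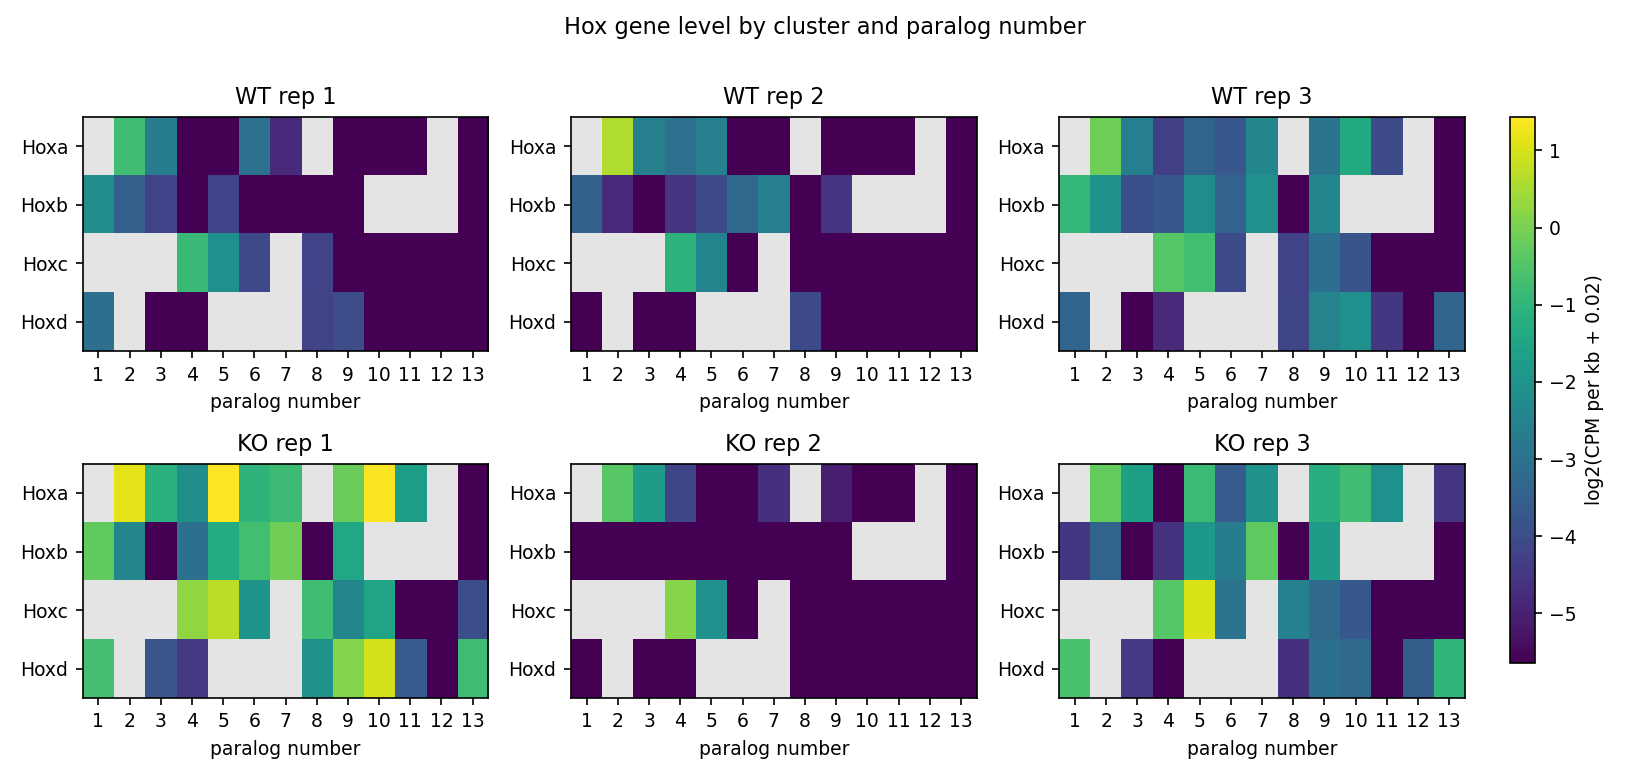
Level of each Hox gene by cluster (rows) and paralog number (columns) in each library, as log2 of CPM per kb of exon plus 0.02, with grey cells where the mouse has no such gene or none is shown. Of the 16 members at paralog numbers 9 to 13, 1 had counts in each of WT replicates 1 and 2 and KO replicate 2. In WT replicate 3, KO replicate 1 and KO replicate 3, 10, 11 and 11 of them had counts. Cells of members without counts are dark.

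In WT cells, the anterior paralogs held the largest share of the Hox message in each library. To compare genes with each other, CPM were divided by exon length in kb. Paralog groups 1 to 3, the hindbrain and pharyngeal end of the code, held 62.9% ± 12.6 (SD, n = 3) of the summed Hox level per kb, with 69.7%, 70.7% and 48.4% in WT replicates 1 to 3. Groups 4 to 8, the trunk range, held 30.2% ± 2.30, and groups 9 to 13, the posterior range, held 6.85% ± 10.3. The posterior share came almost wholly from 1 library: it was 1.27% in WT replicate 1, 0.519% in WT replicate 2 and 18.8% in WT replicate 3. By contrast, the share of groups 4 to 8 was 29.0%, 28.8% and 32.9% in the same libraries, and it was 31.2% when lengths of the longest transcript were used.

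By single paralog number, number 1 had the largest mean share of the WT level (35.7% ± 9.0), followed by number 2 (23.5% ± 10.7), number 4 (13.6% ± 1.83) and number 5 (9.27% ± 2.70). Number 3 held 3.76% ± 1.16 on union exon lengths and 7.43% ± 2.27 on the longest transcripts, because the annotated exons of Hoxa3 add up to 6014 bases. Numbers 6, 7 and 8 held 2.89%, 3.15% and 1.30%. Numbers 9 and 10 held 3.16% ± 3.94 and 3.01% ± 5.21, an SD above the mean because WT replicate 3 carried most of both, and numbers 11, 12 and 13 together less than any of these. Among clusters, Hoxa held 61.6% ± 13.1 of the WT level per kb, Hoxc 20.1% ± 4.62, Hoxb 13.5% ± 6.58 and Hoxd 4.90% ± 3.81.

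**Figure D2:**
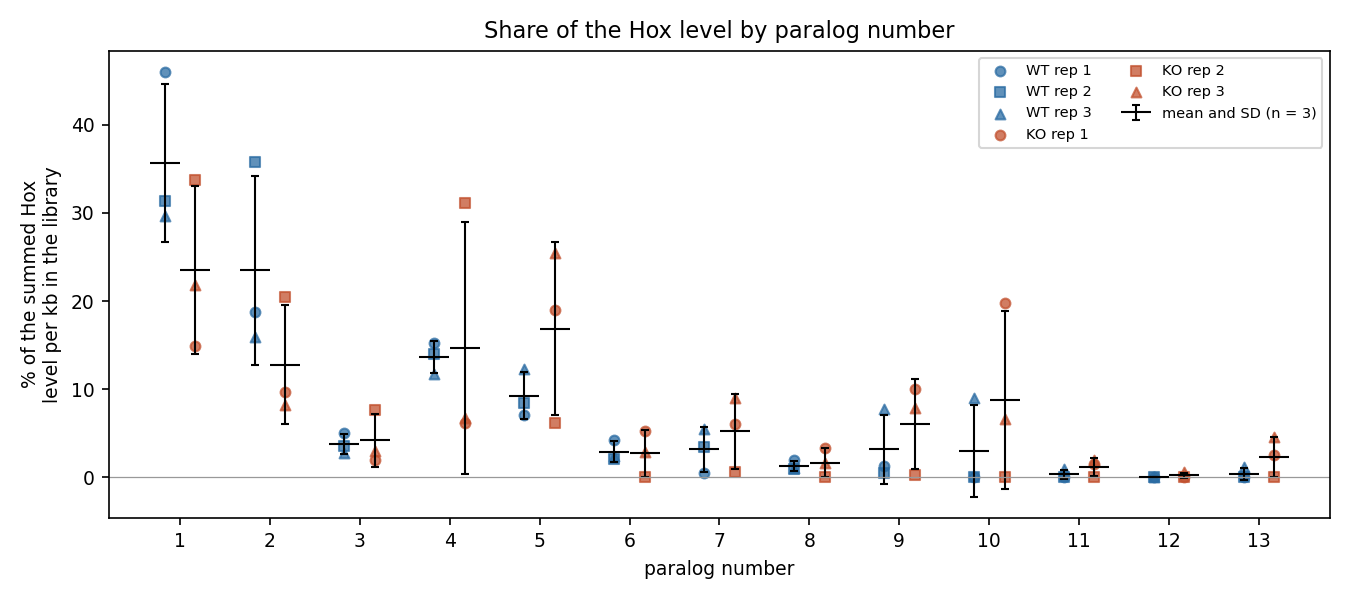
Percent of the summed Hox level per kb that fell to each paralog number, with 1 point per library (blue WT, red KO) and black bars for the mean and SD of 3 libraries. Numbers 1 and 2 lead in WT (35.7% and 23.5%), and the points at 9 and 10 above 5% are WT replicate 3, KO replicate 1 and KO replicate 3.

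Hoxa2, which patterns hindbrain segments and the second pharyngeal arch, was at 0.584, 1.48 and 0.903 CPM per kb in WT replicates 1 to 3 and at 2.21, 0.738 and 0.828 in KO replicates 1 to 3. KO replicate 1 was its highest library, and the genotypes overlapped.

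Hoxc4 and Hoxc5, the anterior end of the Hoxc cluster, came next. Hoxc4 was at 0.532, 0.457 and 0.719 CPM per kb in WT and at 1.18, 1.09 and 0.721 in KO, so every KO library lay above every WT library, the closest pair by a narrow margin. Hoxc5 was at 0.214, 0.163 and 0.597 in WT and at 1.59, 0.221 and 2.03 in KO. Its high libraries were KO replicates 1 and 3, with WT replicate 3 above the other WT libraries. Hoxb1, which marks the fourth hindbrain segment, was at 0.203, 0.0722 and 0.502 in WT and at 0.803, 0 and 0.0234 in KO.

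Hoxa3, needed for thymus, parathyroid and other pharyngeal organs, had the smallest WT spread relative to its mean. Hoxa3 had only 18, 16 and 18 counts in WT, where counting error alone is larger than that spread. Its level per kb was 0.141, 0.149 and 0.145 in WT and 0.440, 0.275 and 0.308 in KO, with no overlap between genotypes. In WT, from high to low level per kb, the order of the members named ran Hoxa2, Hoxc4, Hoxc5, Hoxb1, Hoxa3, Hoxa10, Hoxb7, Hoxb2 and Hoxb5. The ranges of all neighbours in this order overlapped over the 3 WT libraries, so neighbouring ranks did not differ beyond the spread.

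Several central and posterior members differed widely between libraries of the same genotype. Hoxa5, which patterns lung and cervical vertebrae, had 0, 5 and 3 counts in WT and 135, 0 and 19 in KO. Hoxb7 had 0, 4 and 7 counts in WT and 38, 0 and 22 in KO. Hoxa9 had 0, 0 and 13 in WT and 128, 1 and 42 in KO. Hoxa10, known from the uterus, hindlimb and lumbar spine, had 0, 0 and 25 in WT and 229, 0 and 35 in KO, and Hoxd10, a hindlimb and spinal motor neuron gene, had 0, 0 and 8 in WT and 94, 0 and 3 in KO. In each of these genes KO replicate 1 was highest and KO replicate 2 was at 0 or 1 count, with WT replicates 1 and 2 at 5 counts or fewer. Anterior members could differ as widely, such as Hoxb1 with 50, 0 and 1 counts in KO, and Hoxc4 of the central groups was among the steadier members.

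Over all 16 members of paralog groups 9 to 13, the summed counts were 2, 1 and 77 in WT replicates 1 to 3 and 631, 1 and 138 in KO replicates 1 to 3. In CPM these sums were 0.0943 (95% exact Poisson interval 0.0114 to 0.341), 0.0559 (0.00141 to 0.311) and 3.74 (2.95 to 4.67) in WT, and 23.5 (21.7 to 25.4), 0.0570 (0.00144 to 0.317) and 7.51 (6.31 to 8.87) in KO. Both genotypes thus held libraries with and without the posterior code, and the intervals of the 3 low libraries did not reach those of the 3 high ones. Groups 4 to 8 summed to 2.54, 2.79 and 5.92 CPM in WT and to 22.1, 3.59 and 12.8 in KO. Groups 1 to 3 varied least, with 5.84, 6.54 and 8.16 CPM in WT and 15.4, 5.70 and 8.92 in KO.

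KO replicate 2 had counts for 8 of 39 members, WT replicates 1 and 2 for 16 and 15, and KO replicate 3, WT replicate 3 and KO replicate 1 for 30, 31 and 32. The whole Hoxb and Hoxd clusters were at 0 in KO replicate 2, where 0 counts over 10 and over 9 genes gave an upper 95% exact Poisson limit of 0.210 CPM for each sum. KO replicate 1 was the highest library for 29 of the 35 members with counts. Among the 8 members that passed the filter on low counts, the median biological coefficient of variation was 0.577, against 0.210 over all 16353 genes tested.

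Of the 16 mesenchyme markers, 10 had their 3 highest levels in WT replicate 3, KO replicate 1 and KO replicate 3. Isl1, Tbx18, Dcn, Wt1, Twist1 and Foxf1 did not. No share over all genes is available for this order of libraries, so the count is a description and was not tested. The whole list summed to 620, 417 and 1287 CPM in WT replicates 1 to 3 and to 1315, 265 and 1171 CPM in KO replicates 1 to 3. The 3 libraries with a posterior Hox code were the 3 highest. They were also the 3 highest for the sums of other lists, over narrower ranges. These were the TALE cofactors (324 to 386 CPM), the Polycomb genes (2589 to 2824 CPM) and the trithorax genes (1057 to 1134 CPM). In KO replicate 2, 10 of the 16 were at 0, including Col1a1, Col3a1 and Prrx1, and most of its sum was Isl1, at 214 CPM, a gene that pancreatic cells express too. Col3a1, a fibrillar collagen gene of connective tissue, was at 202, 62.1 and 412 CPM in WT and at 518, 0 and 432 in KO. Prrx1, a limb and body wall mesenchyme factor, was at 1.74, 0.670 and 3.20 CPM in WT and at 4.14, 0 and 4.90 in KO.

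The red cell list was high in the same 3 libraries, in another order, and the endothelial list summed to 4.01, 6.48 and 9.08 CPM in WT and to 26.1, 1.48 and 4.14 in KO. Neural genes summed to 52.2 to 122 CPM, with Sox1 and Olig2 at 0 in every library and Pax6, which pancreatic endocrine cells express too, at up to 74.1 CPM, and paraxial mesoderm genes summed to only 5.04 to 14.2 CPM. The pancreatic progenitor and gut epithelium sums were lowest in the 3 libraries with a posterior Hox code, but most single members did not follow the sums. These 3 libraries were the lowest for 3 of 15 pancreatic and 2 of 9 gut epithelium genes, and the highest for 0 of either list. For these counts too, no share over all genes is available. In WT replicate 3, KO replicate 1 and KO replicate 3 the pancreatic list summed to 1176, 1234 and 1258 CPM, below 1345, 1358 and 1485 CPM in WT replicates 1 and 2 and KO replicate 2. The gut epithelium list summed to 3599, 3816 and 3932 CPM in the first 3 and to 4126, 3933 and 4125 CPM in the others, the closest pair nearly equal. In bulk libraries, more cells of a type and more RNA per cell cannot be told apart, and the part that other cell types had in the Hox values was not tested.

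**Figure D3:**
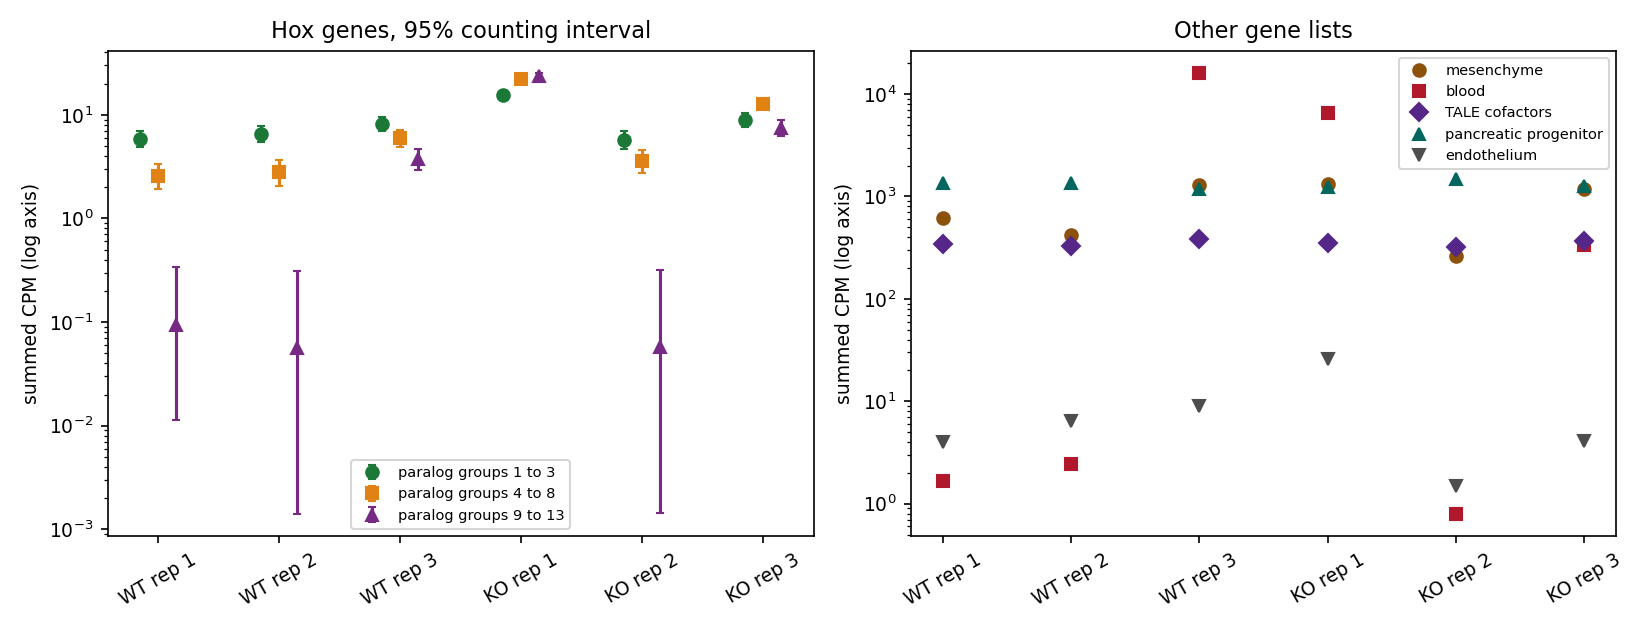
Left, summed CPM of Hox genes by paralog group in each library with 95% exact Poisson intervals, which cover counting error only. Right, summed CPM of 5 other gene lists in the same libraries. Both axes are logarithmic, and groups 9 to 13 span 0.0559 to 23.5 CPM while the TALE cofactors stay between 324 and 386 CPM.

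The comparison of KO with WT asks which mRNAs differ when mir-302 is absent, and no Hox gene passed the test for it. Only 8 of 39 members had enough counts to be tested, among them Hoxa2, Hoxa3, Hoxa9, Hoxa10, Hoxb5, Hoxc4 and Hoxc5. By edgeR's quasi-likelihood test, 0 of these 8 had an adjusted p under 0.05, in a comparison that called 0% of 16353 genes, and 3 had an unadjusted p under 0.05. Those 3 were Hoxa3, Hoxc4 and Hoxc5, all with higher levels in KO, a direction and limit that 6.42% of all genes met. By DESeq2, 0 of the 8 members that received an adjusted p were called, in a comparison that called 4.84% of genes (701) by adjusted p. Of the 35 members DESeq2 fitted, 4 (Hoxa3, Hoxc5, Hoxc8 and Hoxd13) had an unadjusted p under 0.05 and were higher in KO, which 4.08% of all genes with a p were. DESeq2 gave an adjusted p to Hoxa5 and not to Hoxb5, and otherwise to the same members as edgeR.

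All 8 tested members had a positive log2 fold change (KO over WT), from 0.37 to 3.45, with a median of 1.26 on the log2 scale. Over all tested genes the median was -0.02, and 45.6% were positive. The members passed the filter partly through counts in KO replicates 1 and 3. Hoxa9, Hoxa10 and Hoxb5 reached 10 counts only in these and in WT replicate 3, so their direction is a description of those libraries. Leaving out KO replicate 1 and WT replicate 3 together, chosen after the data were seen, left 5 members tested, 4 of them positive, with a median of 0.89 and 0 at an unadjusted p under 0.05.

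Hoxa3 had the smallest adjusted p by edgeR. It rested on 18, 16 and 18 counts in WT and 71, 29 and 34 in KO, or 0.872 ± 0.0228 CPM against 2.05 ± 0.526 (mean ± SD, n = 3). At so few counts, counting error alone is larger than this WT SD. The log2 fold change of Hoxa3 was 1.23 ± 0.33 (SE), with an adjusted p of 0.207 by edgeR and 0.173 by DESeq2. This fold change ranged from 1.01 to 1.39 when single libraries were left out. The gene shares exon sequence with Hoxaas2 and Hoxaas3, which are transcribed antisense to it. Because it is not stated whether strand was used, reads of these genes could not be told apart.

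Hoxc4 rested on 29, 21 and 38 counts in WT and 81, 49 and 34 in KO, and its log2 fold change was 0.80 ± 0.33 (SE), with an adjusted p of 0.465 by edgeR. Hoxa3 and Hoxc4 were the 2 of 8 tested members with every KO library above every WT library, a pattern that 8.36% of all tested genes showed. None of the 8 had every KO library below every WT library, which 7.99% of all genes showed. Hoxc5 had a log2 fold change of 1.97 ± 0.82 (SE), with an adjusted p of 0.466 by edgeR and of 0.138 by DESeq2, the lowest of any member by that tool. Its KO replicate 2, at 0.684 CPM, lay within the WT range of 0.503 to 1.84 CPM.

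The largest fold changes had the largest errors. For Hoxa9 it was 3.45 ± 1.55 (SE) on the log2 scale, with an adjusted p of 0.502 by edgeR, and for Hoxa10 it was 3.08 ± 1.76, with an adjusted p of 0.630. These rested on 1 WT library and 2 KO libraries: without KO replicate 1, the value for Hoxa10 was 1.20. Without WT replicate 3 it was 9.18, which does not measure a size because WT was left at 0 counts. Hoxb5, at 2, 2 and 11 counts in WT and 29, 0 and 13 in KO, had 1.28 ± 1.15. Hoxa2 had 0.37 ± 0.54, with an adjusted p of 0.907 by edgeR, and its value turned to -0.32 without KO replicate 1.

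**Figure D4:**
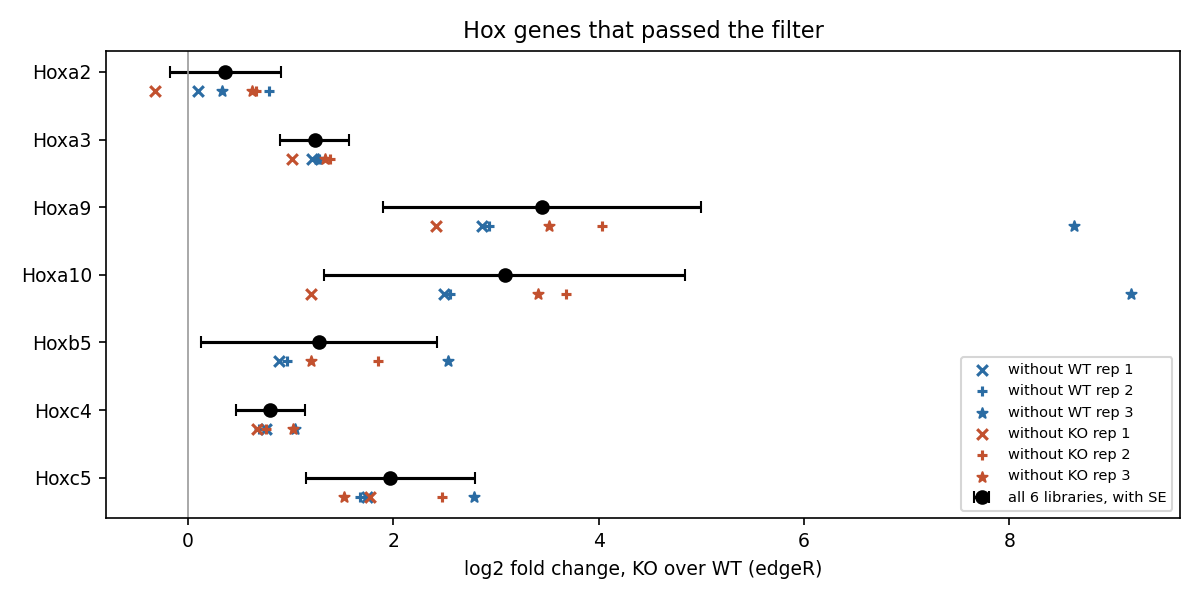
Log2 fold change, KO over WT, of 7 Hox genes that passed the filter, with black points and SE bars for all 6 libraries and coloured marks for fits without 1 library. Hoxa3, Hoxc4 and Hoxc5 stay right of 0 in every fit shown, Hoxa2 crosses it without KO replicate 1, and the marks of Hoxa9 and Hoxa10 past 8 are fits without WT replicate 3, in which WT has no counts.

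The 31 members below the filter held between 0 and 162 counts over all libraries. Hoxa13, Hoxc13, Hoxd3 and Hoxd12 had counts in KO and none in WT, with 1, 3, 8 and 3 counts in all. Hoxb3 had the opposite pattern, with 3, 0 and 4 counts in WT and none in KO. Hoxd13, the last gene of the Hoxd cluster and a digit and genital gene, had 0, 0 and 4 counts in WT and 38, 0 and 22 in KO. Hoxd1 had 4, 0 and 3 in WT and 30, 0 and 22 in KO. KO replicates 1 and 3 carried most counts in both, and neither gene was tested by edgeR or given an adjusted p by DESeq2.

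The TALE cofactors of HOX proteins were abundant and steady beside the Hox genes. All 9 passed the filter, 4 with a positive and 5 with a negative log2 fold change, and 0 were called by edgeR or DESeq2. By edgeR 1 was at an unadjusted p under 0.05, beside 10.4% of all genes. Meis1 was at 107, 96.0 and 116 CPM in WT and at 109, 104 and 102 in KO. Meis3, the highest per kb, ranged from 43.8 to 61.6 CPM.

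Of the chromatin regulators, all 28 Polycomb genes listed were tested, 19 with a positive log2 fold change and a median of 0.10. By DESeq2, 5 of the 28 were called, beside 4.84% of all genes, and all were higher in KO, among them Suz12 and Eed, core subunits of Polycomb repressive complex 2, its accessory subunit Aebp2, and Bmi1 of Polycomb repressive complex 1. Suz12 was at 10.9, 9.33 and 8.35 CPM in WT and at 20.6, 18.5 and 15.7 in KO, a log2 fold change by edgeR of 0.94 ± 0.18 (SE) and an adjusted p by DESeq2 of 0.000413. Bmi1 was at 16.7, 24.8 and 19.8 CPM in WT and at 45.0, 35.0 and 31.1 in KO. By edgeR 0 of the 28 were called, with 6 at an unadjusted p under 0.05, beside 10.4% of all genes, and the adjusted p of Suz12 was 0.132. The highest member, Rbbp7, ranged from 642 to 803 CPM.

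Of 13 trithorax genes, DESeq2 called 3, beside 4.84% of all genes. Kmt2a, the histone H3 lysine methyltransferase best known for keeping Hox genes active, was at 28.9, 25.5 and 28.9 CPM in WT and at 17.2, 16.98 and 18.8 in KO, with a log2 fold change by edgeR of -0.65 ± 0.13 (SE) and an adjusted p by DESeq2 of 0.00158. Kmt2c was lower too (-0.56 ± 0.15), and Psip1, which tethers such complexes to chromatin, was higher (1.10 ± 0.27). By edgeR 0 of the 13 were called, with 4 at an unadjusted p under 0.05, beside 10.4% of all genes, and the adjusted p of Kmt2a was 0.132. The highest member per kb, Dpy30, ranged from 79.4 to 96.3 CPM.

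Noncoding genes of the Hox clusters were at or near 0 in these mRNA libraries. The paper profiled miRNAs in separate small RNA libraries, so 0 counts of a miRNA gene here do not show that it was silent. Of 20 names searched, 16 were found, 7 of these had no count in any library (Hotair, Hottip and the miRNA genes Mir10b, Mir196a-1, Mir196a-2, Mir196b and Mir615), and only Hoxaas2 was tested. Hoxaas2 had 12, 2 and 14 counts in WT and 20, 1 and 7 in KO, at a log2 fold change of -0.16 and an adjusted p of 0.977 by edgeR. Hoxa11os, antisense to Hoxa11, had 0, 0 and 1 in WT and 15, 0 and 2 in KO. Hoxb5os, the highest per kb, reached 7 counts at most. Evx1, which neighbours the posterior end of Hoxa, had 9 counts in KO replicate 1, 1 in WT replicate 3 and none elsewhere.

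Among ParaHox and Cdx genes, Pdx1 had a log2 fold change of -0.14 ± 0.15 (SE) and an adjusted p of 0.859 by edgeR, Gsx1 and Gsx2 were at 0 in all libraries, and 0 of the 2 tested genes were called by either tool. Cdx2, a posterior gut factor, was at 4.15, 11.2 and 5.05 CPM in WT and at 5.67, 3.87 and 1.80 in KO. Cdx1, its relative in the posterior gut, was at 0.236, 0.223 and 0.0486 CPM in WT and at 0.895, 0.741 and 0.490 in KO, from 1 to 24 counts a library, and did not pass the filter. DESeq2 gave Cdx1 no adjusted p.

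Promoter windows of 300 bases (RefSeq, GRCm38.p6) were matched to 22 of the 39 members, with 24 windows. Their median GC content was 57.7% and their median number of CG pairs 14.5, beside 52.7% and 7 over 32851 windows. Letters of known factor motifs were searched on both strands: TTTATG for CDX factors, TGATNNAT for PBX with HOX, and TATAAA. The CDX motif was in 20.8% of Hox windows and 11.9% of all, the PBX and HOX motif in 16.7% and 8.85%, and the TATA motif in 16.7% and 13.6%. The end of the CDX motif can overlap the start of the PBX and HOX motif, and the TATA motif read on the other strand differs from the CDX motif in its last letter. With 24 windows, these shares rest on 4 or 5 windows each. The windows of Hoxa7, Hoxb8 and Hoxd4 each hold TTTATG at 2 places. Over all libraries, Hoxb8 had 0 counts and Hoxd4 had 3. The window of Hoxa2, a member present in all libraries, holds TGATNNAT on the other strand, and that of Hoxa7, a central gene with 1, 0 and 10 counts in WT and 43, 1 and 12 in KO, holds TTTATG at 2 places, with the matches in capitals.
Hoxa2, chr6:52164782-52165081, minus strand: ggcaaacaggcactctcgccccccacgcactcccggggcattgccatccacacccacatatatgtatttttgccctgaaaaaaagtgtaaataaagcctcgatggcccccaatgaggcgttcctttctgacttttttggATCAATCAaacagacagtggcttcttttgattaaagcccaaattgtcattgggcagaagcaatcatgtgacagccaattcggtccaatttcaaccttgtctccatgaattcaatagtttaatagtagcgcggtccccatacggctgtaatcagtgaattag
Hoxa7, chr6:52218524-52218823, minus strand: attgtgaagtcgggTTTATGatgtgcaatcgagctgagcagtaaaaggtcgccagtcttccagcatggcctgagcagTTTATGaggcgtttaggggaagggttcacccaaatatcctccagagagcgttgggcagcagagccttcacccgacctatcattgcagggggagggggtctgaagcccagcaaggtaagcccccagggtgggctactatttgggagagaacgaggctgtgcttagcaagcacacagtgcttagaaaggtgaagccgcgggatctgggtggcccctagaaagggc
No match in a window says only that the letters are not in these 300 bases, and a match was not tested as a binding site.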

How the data were processed

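Counts of mRNA reads per gene were analysed for 3 WT and 3 KO libraries of sorted tdTomato+ cells (SMART-seq v4, Nextera XT, paired-end). The authors removed low-quality sequences, used STAR with its defaults to place them on GRCm39, and counted reads per gene with GenomicAlignments, and they deposited whole-number counts without normalization. Tool versions, annotation, strand setting and handling of shared reads are not given in the sources used here. From these counts, edgeR 4.0.16 (R 4.3.3) was run on all genes with filterByExpr (minimum count 10, minimum total 15), TMM factors, glmQLFit and glmQLFTest at defaults and genotype as the only term. Each standard error is the size of the log2 fold change divided by the square root of F. DESeq2 1.42.0 at its defaults was the other tool. A call means a p under 0.05 after Benjamini-Hochberg adjustment over all genes tested. Symbols were found for 94.0% of identifiers. Exon lengths and 3′UTRs came from GENCODE M21 (GRCm38), and promoters and miRNAs from RefSeq GRCm38.p6, a different build from the counts, so no coordinates of the counted features are given. On simulated counts with 200 of 16353 genes changed, edgeR recovered 45.5% and DESeq2 64.5% of them, and 91 of 96 edgeR calls and 129 of 172 DESeq2 calls were true. Levels were given per library for the 10 members with the highest level per kb, those with an adjusted p under 0.05, tested members with no overlap between genotypes and the 5 tested members with the largest WT spread at a mean of at least 1 CPM. Other lists were named by adjusted p, by their highest member and for Pdx1. The members, lists and tests were chosen with earlier results of these data known. Alternatives were other size factors, other filters, the newer edgeR spread estimate, a replicate block and leaving out single libraries. A few genes covered by these rules are not reported here.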

Additional observations from a re-analysis of the deposited data

How the results depend on the processing

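In every alternative run, 0 Hox genes were called, with members' lowest adjusted p from 0.138 (DESeq2) to 1.00 (edgeR without KO replicate 1 and WT replicate 3, added after the data were seen). The median log2 fold change of the tested members (1.26) was 1.28 with RLE factors, 1.29 with edgeR's newer spread estimate, 1.04 over 6 members with at least 1 CPM in 3 libraries, 1.98 over 35 members with no filter and 1.997 over the 35 that DESeq2 fitted. Leaving out single libraries gave 1.01 (without KO replicate 1) to 2.98 (without WT replicate 3), with 2.38 without KO replicate 2. The number of tested members with no overlap between genotypes (2 of 8) ranged from 2 to 13 over the fits without 1 library, which tested 7 to 16 members. It was 5 without WT replicate 3 and 13 without KO replicate 2. In these fits the filter needed counts in fewer libraries, so members high in KO replicates 1 and 3 could enter. Their counts and medians follow partly from that filter and are a description. Over members of the main fit, the medians were 1.90 without WT replicate 3 and 1.62 without KO replicate 2. Over all genes in the same fits, no overlap in either direction was seen for 16.4% with all libraries, 23.8% without WT replicate 3, 28.8% without KO replicate 2 and 23.5% to 28.01% in the others. The log2 fold change of Hoxa2 (0.37) ranged from -0.32 (without KO replicate 1) to 0.79 (without WT replicate 2) when single libraries were left out and was -0.37 without both KO replicate 1 and WT replicate 3, and the other 7 tested members stayed positive wherever they could be fitted. The WT share of paralog groups 4 to 8 (30.2%) ranged from 28.9% to 30.9% when a WT library was left out. Over all genes, the count called was 0 in the main edgeR fit, 264 with no filter and 217 without WT replicate 2. Deviations from the genotype means had correlations of -0.21, 0.25 and 0.08 between libraries with the same replicate number. With so few libraries, these values cannot settle whether the numbers pair the samples. With a replicate block 0 members were called and the median was 1.14. Low counts limit the Hox genes: 31 of 39 were not tested.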

Other observations

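The following genes of limb, mesenchyme and ectoderm were named here after their values were seen. Of them, Lum and Foxf1 also belong to the mesenchyme list. Their levels are given beside the 3 libraries with a posterior Hox code (WT replicate 3, KO replicate 1 and KO replicate 3). Msx1, a limb bud and neural crest mesenchyme factor, was at 3.96, 2.35 and 9.22 CPM in WT replicates 1 to 3 and at 16.4, 0.171 and 22.4 in KO replicates 1 to 3. Lum, a connective tissue proteoglycan gene, was at 8.48, 1.96 and 14.1 CPM in WT and at 64.5, 0 and 24.4 in KO. Postn, an extracellular matrix gene, was at 9.05, 4.47 and 64.9 CPM in WT and at 214, 3.53 and 39.2 in KO. Tbx5, a forelimb and heart factor, was at 11.4, 2.90 and 29.1 CPM in WT and at 11.03, 0 and 24.4 in KO. Tbx4, a hindlimb factor, was at 0, 1.79 and 0.291 CPM in WT and at 4.43, 0 and 1.91 in KO. Wnt6, a gene of surface ectoderm, was at 0.566, 0.223 and 0.534 CPM in WT and at 6.52, 0.342 and 8.54 in KO. Foxf1, a gut mesenchyme factor, was at 35.3 CPM in KO replicate 1 and at 0.188 to 1.84 CPM in the other 5 libraries. These values are a description, and the pattern between libraries was not tested. In the edgeR comparison of KO with WT, the lowest adjusted p among these genes was 0.238 (Wnt6).

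In marker lists with no Hox role, DESeq2 called Gata4 and Gata6 among 15 pancreatic progenitor genes and Sox2 among 5 stomach and anterior gut genes. All were higher in KO, and DESeq2 called 4.84% of all genes. Sox2 was at 0.660, 0.782 and 1.55 CPM in WT and at 5.14, 4.33 and 2.88 in KO (log2 fold change 2.04 ± 0.42 (SE), adjusted p 0.137 by edgeR). Gata4, the highest of the pancreatic list per kb, was at 173, 249 and 222 CPM in WT and at 342, 334 and 322 in KO, and Gata6 had a log2 fold change of 1.33 ± 0.26. By edgeR none of these was called, with 4 pancreatic genes and 1 stomach gene at an unadjusted p under 0.05, beside 10.4% of all genes. The gut epithelium, intestine, mesenchyme, neural, neural crest, paraxial mesoderm, endothelium, blood and liver lists hold 73 genes. Of these, 52 were tested by edgeR and 41 had an adjusted p by DESeq2, which gave the 8 blood genes and Foxf1 no p. By either tool 0 were called, and edgeR had 1 at an unadjusted p under 0.05, beside 10.4% of all genes. Their highest members per kb were Krt8, Isx, Isl1, Tubb3, Erbb3, Tcf15, Tek, Hbb-y and Afp.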
